A study of Mus musculus with 16 samples.

Results

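The interferon-stimulated genes described here are 48 named mouse genes that cells switch on in answer to interferons, chosen as a list of symbols. All 48 were among the 21442 genes of the count table, and all 48 passed the filter on low counts that left 12915 genes for testing. The list covers 10 kinds of role, from transcription factors to effector enzymes. A type I/III-like class held 10 of the genes (the Oas, Ifit and Mx families), a gamma-like class held 7 (Irf1, Gbp2, Gbp3, Gbp6, Gbp7, Iigp1 and Ido1), and 31 belonged to neither.

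The study sequenced RNA from epithelial cells of the distal colon of mice aged 6 to 8 weeks, sorted by flow cytometry on a red fluorescent mucin reporter. All mice carried the RedMUC298trTg transgene, in which the sort reads mCherry. Cells positive for mCherry are the goblet cell fraction (GC) and mCherry-negative cells the remaining epithelium (EC), which the labels call colonocytes. The WT groups (WT_GC and WT_EC) carry the reporter alone, and the SpdefKO groups (SpdefKO_GC and SpdefKO_EC) carry it with a knockout of Spdef, a transcription factor of goblet cell maturation. Each group had 4 libraries, known here by the numbers in their titles. The labels name neither the knockout allele nor the mouse behind each library, so the p-values measure the spread between libraries, which may be partly technical. RNA of the GC fraction was purified on a different column type from that of the EC fraction.

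Interferons of type I and type III signal through separate receptors to a shared complex that includes Stat2 and Irf9, which binds the interferon-stimulated response element of its target genes. Interferon gamma, the type II interferon made mainly by lymphocytes, acts on genes with gamma-activated sites, and through Irf1 made in answer to it. In the gut epithelium these genes restrict viruses and intracellular bacteria, and many genes respond to more than 1 kind of interferon, so the class names are a guide rather than a test of the ligand.

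The promoters of some of the genes show these elements, and those of 7 genes are printed to show both classes, with and without a match; where RefSeq lists more than 1 start (Gbp3 and Irf1), the window with most matches is shown. Each is the 250 bases before the RefSeq start on GRCm38.p6, written 5′ to 3′ on the gene's strand. Capitals mark the core of the response element, GAAANNGAAA, or of the gamma-activated site, TTCNNNGAA, searched on both strands, with overlapping matches joined into 1 run. The first 4 genes below, Ifit1 at chr19:34640639-34640888 on the plus strand, Oas3 at chr5:120777660-120777909 on the minus strand, Oasl2 at chr5:114896684-114896933 on the plus strand and Isg15 at chr4:156200819-156201068 on the minus strand, are antiviral genes, of which Isg15 belongs to neither class. The other 3, Gbp2 at chr3:142620413-142620662, Gbp3 at chr3:142559794-142560043 and Irf1 at chr11:53769764-53770013, all on the plus strand, are gamma-like.
Ifit1: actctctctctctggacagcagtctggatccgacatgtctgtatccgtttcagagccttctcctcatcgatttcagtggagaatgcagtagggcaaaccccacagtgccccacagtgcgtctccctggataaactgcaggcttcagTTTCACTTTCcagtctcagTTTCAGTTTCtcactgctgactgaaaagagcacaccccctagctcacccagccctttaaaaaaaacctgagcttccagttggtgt
Oas3: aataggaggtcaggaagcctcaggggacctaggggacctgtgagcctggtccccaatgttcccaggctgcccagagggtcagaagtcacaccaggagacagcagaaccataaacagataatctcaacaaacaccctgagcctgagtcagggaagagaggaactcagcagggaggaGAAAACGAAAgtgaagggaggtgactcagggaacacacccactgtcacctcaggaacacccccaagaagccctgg
Oasl2: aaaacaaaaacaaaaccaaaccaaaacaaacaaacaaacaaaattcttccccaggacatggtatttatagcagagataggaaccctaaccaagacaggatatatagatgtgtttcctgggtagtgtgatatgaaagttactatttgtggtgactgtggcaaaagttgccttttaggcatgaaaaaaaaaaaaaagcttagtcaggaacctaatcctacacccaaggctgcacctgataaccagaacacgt
Isg15: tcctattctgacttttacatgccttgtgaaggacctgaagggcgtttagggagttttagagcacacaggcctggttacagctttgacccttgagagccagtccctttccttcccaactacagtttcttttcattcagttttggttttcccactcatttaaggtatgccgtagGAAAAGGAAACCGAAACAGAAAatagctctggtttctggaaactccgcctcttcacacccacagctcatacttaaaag
Gbp2: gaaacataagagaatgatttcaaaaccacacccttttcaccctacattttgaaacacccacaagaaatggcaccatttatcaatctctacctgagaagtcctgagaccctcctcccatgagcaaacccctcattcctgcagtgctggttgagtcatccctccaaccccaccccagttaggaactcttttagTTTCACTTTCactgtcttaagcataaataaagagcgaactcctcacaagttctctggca
Gbp3: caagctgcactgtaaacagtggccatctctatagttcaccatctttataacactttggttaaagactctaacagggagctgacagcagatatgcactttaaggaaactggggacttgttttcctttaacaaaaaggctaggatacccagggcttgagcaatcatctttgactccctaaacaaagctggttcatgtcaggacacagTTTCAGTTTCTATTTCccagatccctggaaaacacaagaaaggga
Irf1: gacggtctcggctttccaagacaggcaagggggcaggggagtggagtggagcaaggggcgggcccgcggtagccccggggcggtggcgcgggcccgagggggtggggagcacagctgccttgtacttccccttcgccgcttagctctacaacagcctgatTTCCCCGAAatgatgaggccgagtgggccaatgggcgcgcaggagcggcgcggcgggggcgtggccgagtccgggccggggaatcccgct
The Ifit1 window held 2 separate response element cores, Isg15 held 3 that overlap, Gbp3 held 2 that overlap, and Oas3 and Gbp2 held 1 each. The Irf1 window held no such core and the letters of 1 gamma-activated site. The Oasl2 window held neither, which says only that these letters are not in it. Gbp2 and Gbp3, although placed in the gamma-like class, thus carried the same core as Ifit1 and Oas3. Of the 27025 genes with a window of this length, 3.46% held the response element core and 8.13% the gamma-activated site. A window was matched for 36 of the 48 members, too few for a count over the list, so none is given. A match describes letters and is no measurement of binding.

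Libraries held 10085600 to 17112000 counts on genes (to 6 significant digits). Levels are given as CPM, a gene's count relative to the scaled total of its library over genes, and are compared between groups and never between genes. Values of single libraries stand in order of library number: 9, 11, 13 and 18 in WT_GC, 3, 5, 7 and 19 in SpdefKO_GC, 10, 12, 14 and 17 in WT_EC, and 4, 6, 8 and 20 in SpdefKO_EC. Spdef, which serves as the check on the labels, was at 279.8, 306, 281 and 315 CPM in the WT_GC libraries and 368, 373, 446 and 294 CPM in the SpdefKO_GC libraries. The fitted difference was above 0 and not called (log2 0.33 ± 0.14 (SE), adjusted p = 0.116), and in EC, where WT libraries held 1.82 to 3.77 CPM and SpdefKO libraries 1.15 to 3.51 CPM, it did not pass the test either (log2 -0.28 ± 0.28, adjusted p = 0.559). The labels do not say which part of the gene was deleted, so the genotype rests on the labels, and SpdefKO below means the libraries labelled so. The summed level of 9 goblet cell markers, the check on the sort, was 47864 to 65453 CPM in GC against 506 to 731 CPM in EC.

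In both fractions, many interferon-stimulated genes were higher in the SpdefKO libraries. Of the 48 genes, 23 rose and 2 fell in SpdefKO_GC against WT_GC at an adjusted p under 0.05. Over all 12915 genes 10.4% rose and 11% fell in that comparison. In SpdefKO_EC against WT_EC 26 rose and none fell, where 6.09% of all genes rose and 6.54% fell. At an unadjusted p under 0.05 the counts were 35 higher and 2 lower in GC, and 39 higher and 0 lower in EC, by the same test. Of all 12915 genes, 2199 were higher and 2253 lower in GC at that unadjusted threshold, and 1850 and 1784 in EC. At the adjusted threshold DESeq2 likewise called 0 members lower in EC. The median difference of the 48 genes was log2 0.81 in GC and 0.85 in EC, against 0.00 and 0.01 over all genes, and 46 of 48 values were above 0 in each fraction. All 4 SpdefKO libraries lay above all 4 WT libraries for 18 members in GC (11.6% of all genes did so) and for 26 in EC (6.94%). In such bulk samples more cells of a responding type and more RNA per cell cannot be told apart.

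**Figure D1:**
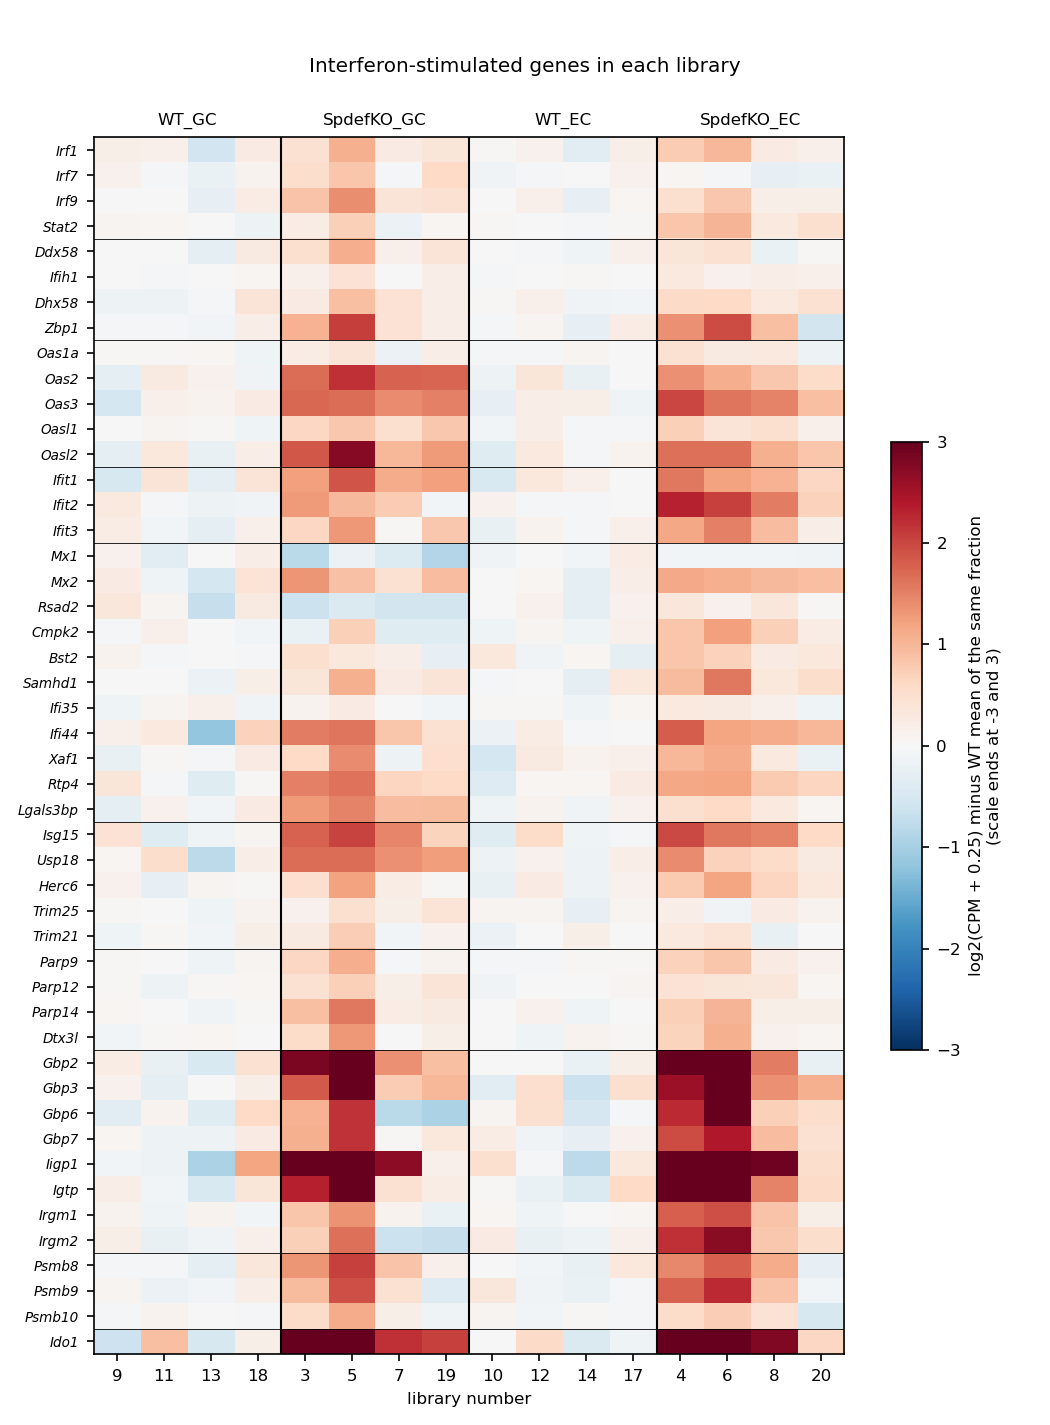
Heat map of the 48 genes (rows, in order of role, with thin lines between roles) in the 16 libraries (columns, by group and library number). Colour is log2(CPM + 0.25) minus the WT mean of the same fraction, with the colour scale ending at -3 and 3. The SpdefKO columns are red for most rows in both fractions, and the GTPase rows are darkest in libraries 3, 5, 4 and 6.

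Rises called in both fractions covered 16 genes: Dhx58, Oas2, Oas3, Oasl1, Oasl2, Ifit1, Mx2, Ifi44, Rtp4, Isg15, Usp18, Parp12, Gbp2, Gbp3, Iigp1 and Ido1. A further 7 were called higher in GC alone (Irf7, Irf9, Ddx58, Lgals3bp, Trim25, Parp14 and Psmb8) and 10 in EC alone (Stat2, Ifit2, Ifit3, Cmpk2, Samhd1, Herc6, Gbp7, Igtp, Irgm1 and Irgm2). Being called in 1 fraction alone is no difference between the fractions, and that difference is tested further on. The 15 genes not called higher in either were Irf1, Ifih1, Zbp1, Oas1a, Mx1, Rsad2, Bst2, Ifi35, Xaf1, Trim21, Parp9, Dtx3l, Gbp6, Psmb9 and Psmb10.

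Among the transcription factors, 2 of 4 rose in GC and 1 of 4 in EC. Irf9, the DNA-binding subunit of the complex with Stat2, was at 21.3, 21.3, 17.7 and 24.7 CPM in WT_GC and 38.5, 56.1, 27.6 and 29.3 CPM in SpdefKO_GC. The groups did not overlap, library 5 was the highest, and the rise was called (log2 0.84 ± 0.20 (SE), adjusted p = 0.00814). In EC, Irf9 had a mean of 45.2 ± 5.19 CPM in WT libraries and of 60.8 ± 13.2 CPM in SpdefKO libraries (± SD, n = 4, as in all such means below), a difference that was not called (log2 0.43 ± 0.20, adjusted p = 0.16). Irf7, the factor that amplifies type I interferon production, rose in GC from 22.6 ± 2.47 to 32.4 ± 7.73 CPM (log2 0.52 ± 0.14, adjusted p = 0.0125) and did not pass the test in EC (log2 -0.10 ± 0.13, adjusted p = 0.647). Reads of Irf7 could also come from Phrf1, which overlaps it on the opposite strand, as the strand setting of the counting is not given. Stat2, of the same complex, rose in EC, with 32.1, 31.6, 30.2 and 32.4 CPM in WT_EC and 56.3, 63.9, 38.8 and 44.2 CPM in SpdefKO_EC (log2 0.69 ± 0.16, adjusted p = 0.0115), and did not pass in GC (log2 0.24 ± 0.17, adjusted p = 0.318). Irf1, the factor of the gamma response, was not called in GC (log2 0.53 ± 0.23, adjusted p = 0.117) or in EC (log2 0.57 ± 0.23, adjusted p = 0.12), with fitted ratios of 1.45 and 1.48 over WT.

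Of the 4 sensors of foreign nucleic acid, 2 rose in GC and 1 in EC. Ddx58, the RNA helicase RIG-I, rose in GC from 25.8 ± 3.95 to 38.0 ± 11.4 CPM (log2 0.56 ± 0.18, adjusted p = 0.033), and its groups overlapped. Dhx58, a helicase that regulates RIG-I signalling, rose in GC (log2 0.48 ± 0.16, adjusted p = 0.0412) and EC (log2 0.49 ± 0.16, adjusted p = 0.0455), close to the threshold in both. Ifih1, the helicase MDA5, was not called, at log2 0.21 in GC and 0.20 in EC. Zbp1, which recognises left-handed nucleic acids, had the largest difference of the sensors in GC, with 9.32, 9.20, 9.08 and 11.2 CPM in WT_GC and 20.2, 41.3, 13.1 and 11.2 CPM in SpdefKO_GC. Its spread was wide, library 19 lay level with the highest WT library, and it was not called (log2 1.15 ± 0.45, adjusted p = 0.0856).

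Of the Oas family, whose active enzymes make the messenger that activates the antiviral RNase L, 4 of 5 genes rose in each fraction. Oas2 stood at 1.73, 2.62, 2.35 and 1.96 CPM in WT_GC and at 7.40, 10.7, 7.84 and 7.81 CPM in SpdefKO_GC. Every SpdefKO_GC library was thus above every WT_GC library by a wide gap, and the difference was 3.85-fold (log2 1.94 ± 0.20, adjusted p = 1.75e-06). In EC it went from 1.90, 2.84, 1.81 and 2.13 CPM to 5.93, 4.83, 3.96 and 3.23 CPM, again without overlap (log2 1.07 ± 0.21, adjusted p = 0.00326). Oas3 rose 3.22-fold in GC, from 1.86 ± 0.456 to 5.98 ± 0.587 CPM (log2 1.69 ± 0.24, adjusted p = 6.13e-05), and 2.99-fold in EC, from 8.32 ± 1.25 to 24.7 ± 7.54 CPM (log2 1.58 ± 0.19, adjusted p = 3.67e-05). Oasl2, of the same family, rose in GC (log2 1.93 ± 0.37, adjusted p = 0.00215) and in EC (log2 1.34 ± 0.30, adjusted p = 0.0106). Oasl1, a translational inhibitor of Irf7, rose by log2 0.69 ± 0.11 in GC (adjusted p = 0.000254) and 0.45 ± 0.11 in EC (adjusted p = 0.0111). Oas1a was not called in GC (log2 0.17 ± 0.12, adjusted p = 0.335) or EC (log2 0.25 ± 0.11, adjusted p = 0.164), and as 1 of a cluster of near-identical copies its counts are uncertain. Oas2, Oas3 and Oas1a lie together on chromosome 5 between 120730333 and 120907521 of GRCm38, and Oasl2 and Oasl1 on the same chromosome between 114896936 and 114937915.

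The Ifit genes, whose proteins bind viral RNA ends, lie together on chromosome 19 between 34550694 and 34650009. Ifit1 stood at 0.865, 1.78, 1.02 and 1.78 CPM in WT_GC and 3.38, 5.49, 3.11 and 3.41 CPM in SpdefKO_GC, with no overlap (log2 1.50 ± 0.32, adjusted p = 0.00329). In EC, where its level was higher in both genotypes, it rose from 19.97 ± 4.35 to 43.7 ± 11.8 CPM (log2 1.14 ± 0.21, adjusted p = 0.00202). Ifit2 rose in EC, from 7.86, 6.87, 6.82 and 7.12 CPM to 36.5, 30.7, 21.2 and 11.8 CPM (log2 1.81 ± 0.27, adjusted p = 0.000549), and was not called in GC (log2 0.92 ± 0.39, adjusted p = 0.108). Ifit3 rose in EC (log2 1.10 ± 0.25, adjusted p = 0.00868). In GC it was near the limit of detection, with 3, 2, 1 and 2 reads in the WT libraries and 6, 10, 2 and 6 in the SpdefKO libraries, and was not called (log2 1.52 ± 0.60, adjusted p = 0.0803). Ifit3 also has a near-identical neighbour, so its reads may be shared.

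**Figure D2:**
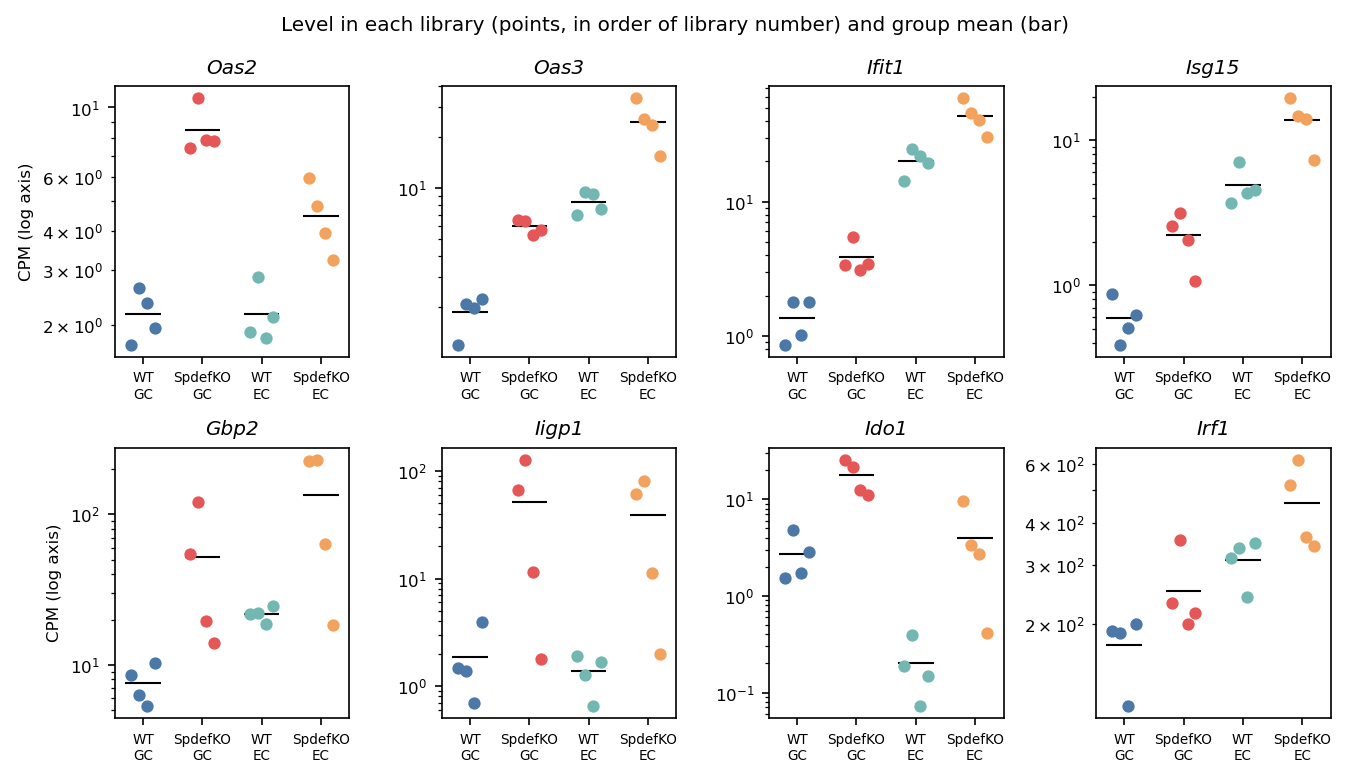
Level of 8 of the genes in each library (points, in CPM on a logarithmic axis, in order of library number within a group) with the group mean as a bar. Oas2, Oas3, Ifit1 and Isg15 separate SpdefKO from WT in both fractions, whereas Gbp2 and Iigp1 spread widely within SpdefKO.

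The 2 Mx genes, dynamin-like GTPases that block virus replication, did not move together. Mx2 rose in GC, from 0.778 ± 0.277 to 1.65 ± 0.454 CPM (log2 1.13 ± 0.27, adjusted p = 0.00531), and in EC, from 1.45 ± 0.218 to 3.17 ± 0.231 CPM (log2 1.13 ± 0.23, adjusted p = 0.0035). Mx1, which is defective in many inbred laboratory strains, fell in GC from 9.25, 6.75, 8.32 and 9.78 CPM to 4.70, 7.50, 6.29 and 4.48 CPM (log2 -0.57 ± 0.16, adjusted p = 0.0146), with libraries overlapping. That call was lost without WT_GC library 18 and without SpdefKO_GC library 3 or 19, at adjusted p = 0.0517 to 0.0584. In EC, Mx1 was at 10.6 ± 0.104 CPM in SpdefKO against 11.3 ± 1.24 CPM in WT (adjusted p = 0.707).

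Of the other antiviral effectors, Rsad2 (viperin) was the only further member called lower in GC, going from 68.5, 57.2, 33.3 and 64.9 CPM in WT_GC to 34.5, 39.8, 36.9 and 36.8 CPM in SpdefKO_GC (log2 -0.60 ± 0.16, adjusted p = 0.0156). WT_GC library 13 lay below every SpdefKO_GC library, and without WT_GC library 9 or 18 the call was lost (adjusted p = 0.0559 to 0.0566). Its neighbour Cmpk2, a mitochondrial nucleotide kinase, was not called in GC (log2 0.01 ± 0.23, adjusted p = 0.976) and rose in EC from 11.5 ± 1.15 to 20.1 ± 5.75 CPM (log2 0.82 ± 0.22, adjusted p = 0.0221). Ifi44 rose in GC, from 0.533, 0.614, 0.0635 and 0.889 CPM to 1.78, 1.88, 0.989 and 0.710 CPM, with overlap and few reads in either group (log2 1.41 ± 0.43, adjusted p = 0.0264). In EC its libraries did not overlap, with 1.19 ± 0.169 CPM in WT and 3.31 ± 0.994 CPM in SpdefKO (log2 1.49 ± 0.34, adjusted p = 0.00869). Rtp4 rose in GC (log2 1.28 ± 0.28, adjusted p = 0.00314) and EC (log2 0.97 ± 0.21, adjusted p = 0.00567) without overlap. Lgals3bp, a secreted binding partner of galectins, rose 2.26-fold in GC, from 23.3, 31.1, 26.9 and 33.8 CPM to 69.7, 80.0, 54.4 and 55.3 CPM (log2 1.18 ± 0.14, adjusted p = 1.47e-05), and was not called in EC (log2 0.37 ± 0.14, adjusted p = 0.0828). Samhd1, which depletes the nucleotides viruses need, rose in EC (log2 0.91 ± 0.24, adjusted p = 0.0242) and not by the test in GC (log2 0.56 ± 0.26, adjusted p = 0.134). Bst2 (tetherin), Ifi35 and Xaf1 were called in neither fraction, with values between log2 0.07 and 0.77.

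Isg15 is a ubiquitin-like protein that is joined to other proteins and also secreted. It was at 0.865, 0.390, 0.508 and 0.623 CPM in WT_GC and 2.58, 3.13, 2.05 and 1.07 CPM in SpdefKO_GC, all of the latter higher (3.74-fold, log2 1.90 ± 0.44, adjusted p = 0.00493). In EC it was at 3.67, 7.11, 4.35 and 4.55 CPM and 19.4, 14.7, 13.96 and 7.29 CPM, again separate (2.86-fold, log2 1.52 ± 0.28, adjusted p = 0.00218). Usp18, the protease that removes Isg15 and damps the type I receptor, rose 3.43-fold in GC, from 0.546 ± 0.269 to 1.90 ± 0.315 CPM (log2 1.78 ± 0.35, adjusted p = 0.00142), and 1.84-fold in EC (log2 0.88 ± 0.27, adjusted p = 0.0366). Herc6, the ligase that attaches Isg15 in mice, rose in EC (log2 0.77 ± 0.22, adjusted p = 0.0253) and was not called in GC (log2 0.59 ± 0.24, adjusted p = 0.0881). Trim25, a ligase that activates RIG-I, rose slightly in GC (log2 0.31 ± 0.10, adjusted p = 0.031) and was not called in EC (log2 0.11), and the antibody receptor Trim21 was called in neither (log2 0.30 and 0.14).

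Of the ADP-ribosylation group, 2 of 4 rose in GC and 1 of 4 in EC. Parp12 rose in GC (log2 0.45 ± 0.10, adjusted p = 0.00381) and EC (log2 0.31 ± 0.10, adjusted p = 0.0436). Parp14, the largest change of the group in GC, was at 41.2, 39.9, 37.0 and 40.6 CPM in WT_GC and 74.8, 119, 45.9 and 47.7 CPM in SpdefKO_GC (log2 0.86 ± 0.27, adjusted p = 0.0332), with libraries 3 and 5 far above 7 and 19. Parp9 and its partner Dtx3l were called in neither fraction, at log2 0.52 and 0.61 in GC and 0.51 and 0.53 in EC. These genes overlap on opposite strands, so reads may be shared between them.

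The guanylate-binding proteins and the immunity-related GTPases attack the vacuoles of intracellular pathogens and are typical targets of interferon gamma. Of the 8 measured, 3 rose in GC and 7 in EC, with differences of up to log2 4.89 that were uneven between libraries. Iigp1 was at 1.46, 1.39, 0.699 and 3.91 CPM in WT_GC libraries 9, 11, 13 and 18, and at 66.8, 127, 11.4 and 1.78 CPM in SpdefKO_GC libraries 3, 5, 7 and 19. In EC it was at 1.90, 1.26, 0.653 and 1.69 CPM in WT libraries 10, 12, 14 and 17 and at 60.7, 81.4, 11.4 and 1.98 CPM in SpdefKO libraries 4, 6, 8 and 20. Libraries 19 and 20 were thus near the WT level, while 5 and 6 were the highest. The fitted rise was log2 4.89 ± 1.32 in GC (adjusted p = 0.0194) and 4.82 ± 1.38 in EC (adjusted p = 0.0376), and the groups overlapped in GC and not in EC.

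Gbp2 followed the same order, with 8.59, 6.30, 5.34 and 10.2 CPM in WT_GC and 54.1, 121, 19.6 and 14.1 CPM in SpdefKO_GC (log2 2.80 ± 0.82, adjusted p = 0.0287), and 21.7, 22.0, 18.7 and 24.7 CPM in WT_EC and 224, 229, 63.2 and 18.4 CPM in SpdefKO_EC (log2 2.63 ± 0.76, adjusted p = 0.0394). SpdefKO_EC library 20 lay below all WT_EC libraries, while libraries 4 and 6 lay far above them. Gbp3 rose in GC (log2 2.18 ± 0.62, adjusted p = 0.0213) and EC (log2 2.38 ± 0.62, adjusted p = 0.0216), and in both every SpdefKO library was above every WT library. Gbp7 rose in EC (log2 1.66 ± 0.47, adjusted p = 0.0326) and was not called in GC (log2 1.15 ± 0.45, adjusted p = 0.0824). Gbp6 was called in neither (log2 0.96 ± 0.72, adjusted p = 0.377 in GC, and log2 2.23 ± 0.74, adjusted p = 0.0633 in EC), with SpdefKO_GC libraries 7 and 19 below every WT_GC library and 3 and 5 above. Gbp7, Gbp3 and Gbp2 lie on chromosome 3 between 142530342 and 142638008, and Gbp2, Gbp3, Gbp6 and Iigp1 have close relatives that may share reads.

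Igtp, Irgm1 and Irgm2, which guard membranes in the same response, rose in EC by log2 2.60, 1.36 and 1.85 (adjusted p = 0.0287, 0.0218 and 0.0419). In GC they were at log2 2.06, 0.65 and 0.61 and none was called. Irgm2 in SpdefKO_GC ran over 29.3, 56.6, 11.2 and 10.9 CPM, so that libraries 7 and 19 were below all WT_GC libraries, which held 15.2 to 20.04 CPM. Igtp and Irgm2 overlap on the same strand and may share reads.

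Ido1, which degrades tryptophan, was the gamma-like gene whose rise in GC held in all alternatives tried. Its level was 1.53, 4.85, 1.71 and 2.85 CPM in WT_GC and 25.5, 21.7, 12.3 and 11.1 CPM in SpdefKO_GC, with no overlap (log2 2.67 ± 0.54, adjusted p = 0.00286). In EC it was at 0.190, 0.395, 0.0725 and 0.147 CPM in WT, which is 3, 5, 1 and 2 reads, and at 9.56, 3.33, 2.73 and 0.417 CPM in SpdefKO (log2 4.35 ± 0.93, adjusted p = 0.00818). The immunoproteasome subunits, which trim peptides for antigen presentation, were uneven as well, with library 5 the highest in GC for all 3. Psmb8 was at 9.19, 9.26, 7.88 and 12.2 CPM in WT_GC and 24.2, 40.5, 17.3 and 10.7 CPM in SpdefKO_GC, a rise by the test (log2 1.28 ± 0.41, adjusted p = 0.0398), and was not called in EC (log2 1.21 ± 0.38, adjusted p = 0.0539). Psmb9 and Psmb10 were called in neither, with log2 1.01 and 0.51 in GC. Psmb8 and Psmb9 lie on chromosome 17, 6.47 and 6.45 Mb from Spdef, and Psmb9 overlaps Tap1 on the opposite strand.

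Set side by side, the gamma-like genes spread more widely over the SpdefKO libraries than the type I/III-like genes. Of the type I/III-like genes 6 of 10 rose and 1 fell in GC and 8 of 10 rose in EC, with median differences of log2 1.31 and 1.12. Of the gamma-like genes 4 of 7 rose in GC and 5 of 7 in EC, with medians of 2.18 and 2.38. The ratio of the highest to the lowest SpdefKO library had a median of 1.72 in GC and 1.80 in EC for type I/III-like genes. For gamma-like genes it was 5.99 and 7.07, and in WT 1.92 and 2.12. Over all genes the SpdefKO medians were 1.29 and 1.32. The largest single ratio was that of Iigp1 in SpdefKO_GC, 71.5.

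The class medians per library show where this spread lies. Each is the median over the class of log2(CPM + 0.25) minus the WT mean of that fraction. The gamma-like median in SpdefKO_GC libraries 3, 5, 7 and 19 was 1.83, 3.01, 0.76 and 0.35. In SpdefKO_EC libraries 4, 6, 8 and 20 it was 2.57, 3.25, 1.37 and 0.53, the same order. The type I/III-like median was 1.25, 1.13, 0.62 and 0.87 in GC and 1.26, 1.15, 0.95 and 0.58 in EC. Every SpdefKO library thus lay above the WT mean for both classes, but for the gamma-like class the pair 5/6 was far above the pair 19/20. The labels do not say whether GC and EC libraries with adjacent numbers came from the same mouse.

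**Figure D3:**
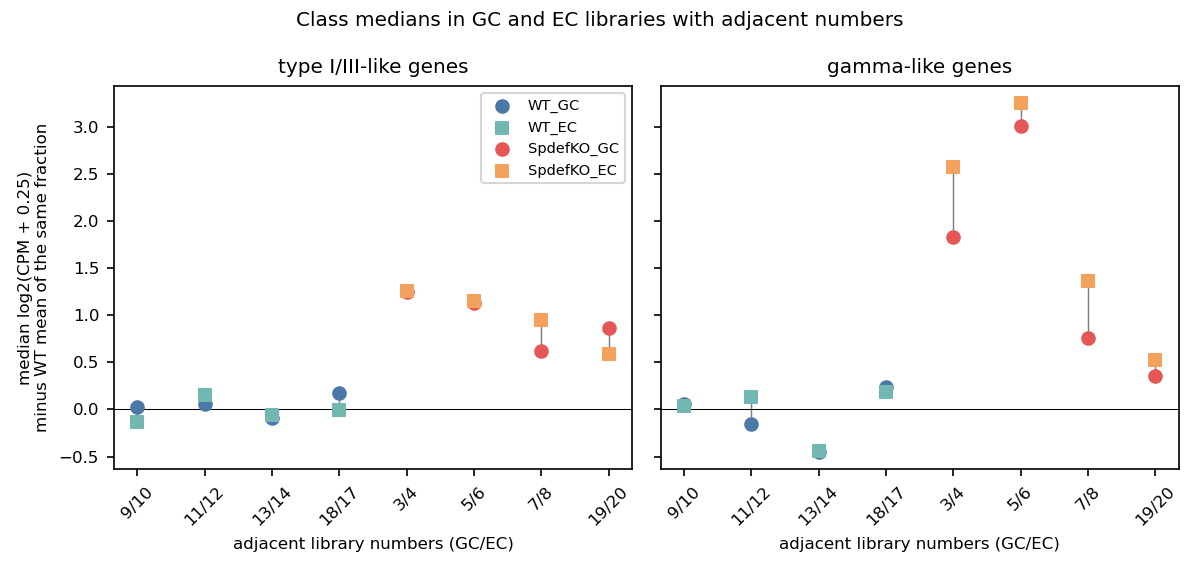
Class median in each library, as log2(CPM + 0.25) minus the WT mean of the same fraction, for GC (circles) and EC (squares) libraries with adjacent numbers joined by a line. Type I/III-like medians of the SpdefKO libraries lie between 0.58 and 1.26, and gamma-like medians run from 0.35 to 3.25 in the same order in GC and EC.

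For 35 of the 48 members (72.9%) the highest SpdefKO_GC library and the highest SpdefKO_EC library had adjacent numbers, as they did for 46.9% of all genes. All 7 gamma-like genes, 5 of 10 type I/III-like genes and 23 of 31 genes of neither class were among them. Library 5 was the highest SpdefKO_GC library for 42 members and library 6 the highest SpdefKO_EC library for 29. Over all 12915 genes library 5 was the highest for 4477 and library 6 for 3839, the most of any library in each group. All 4 SpdefKO libraries stood in the same order in GC and EC for 4 of 7 gamma-like genes and 1 of 10 type I/III-like genes. They did so for 15 of 31 genes of neither class and for 16.4% of all genes. In WT the highest GC and EC libraries were adjacent for 22 members, 45.8% against 36.6% of all genes. By class these were 8 of 10 type I/III-like genes, 3 of 7 gamma-like genes and 11 of 31 genes of neither class.

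The difference between the fractions was tested as an interaction, the change by genotype in GC less the change in EC. It was called for 3 members, 2 higher in GC and 1 lower, where 4.88% and 4.65% of all genes were called. Lgals3bp (log2 0.80 ± 0.20 (SE), adjusted p = 0.0155) and Irf7 (log2 0.62 ± 0.19, adjusted p = 0.0461) had the larger rise in GC. Rsad2 (log2 -0.81 ± 0.23, adjusted p = 0.0355) fell in GC and was at log2 0.21 in EC. Of the 3, Lgals3bp kept its call under all alternatives tried. The call of Irf7 was lost without any 1 of 10 of the 16 libraries (adjusted p = 0.0505 to 0.102) and that of Rsad2 without any 1 of 13 (0.0558 to 0.0840), and both were lost under limma-voom and with no filter on low counts. For Oas2 the difference was not called in this fit (log2 0.87 ± 0.30, adjusted p = 0.0731).

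With adjacent numbers as a block, 5 members were called higher and 11 lower in that test. The share of all genes called in that fit is not given, so these counts cannot be read as particular to the members. The 5 were Ddx58, Irf7, Irf9, Lgals3bp and Oas2, the last at log2 0.89 ± 0.26, adjusted p = 0.0148. Lower, that is with the larger rise in EC, were Cmpk2, Gbp6, Gbp7, Ifit2, Igtp, Irgm1, Irgm2, Psmb9, Samhd1 and Stat2, besides Rsad2. Among them Irgm2 was at log2 -1.29 ± 0.12, adjusted p = 7.05e-08, Irgm1 at -0.69 ± 0.11, adjusted p = 9.36e-05, and Ifit2 at -0.90 ± 0.21, adjusted p = 0.00288. The block assumes a pairing that the labels do not state.

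**Figure D4:**
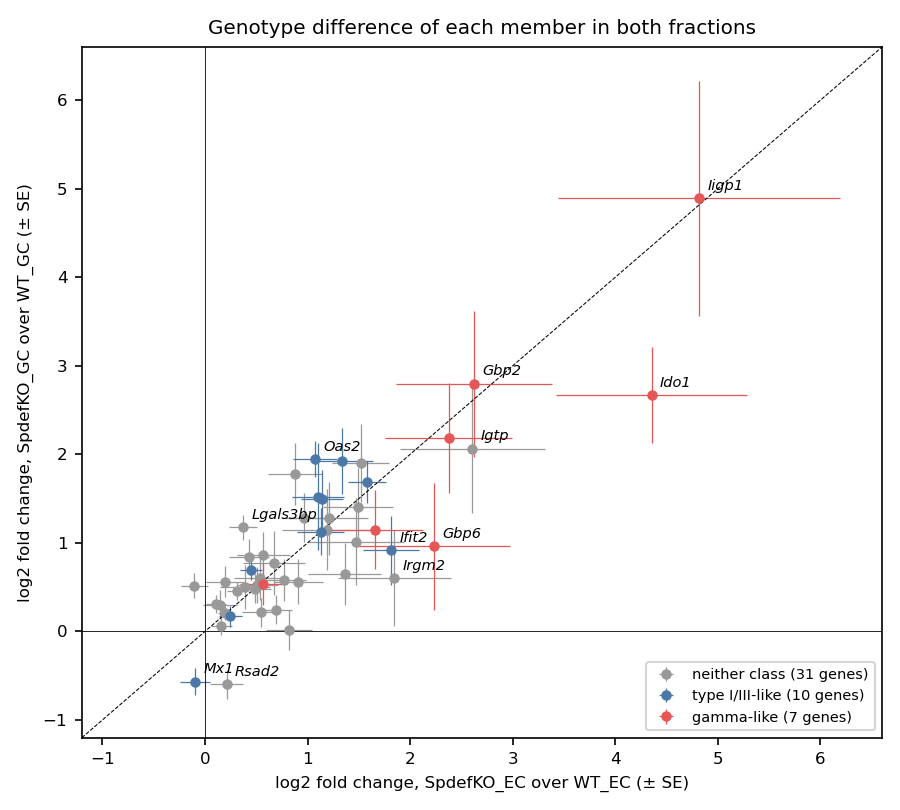
Log2 fold change of each of the 48 genes in SpdefKO_EC over WT_EC (horizontal) and SpdefKO_GC over WT_GC (vertical), with standard errors as bars and the line of equality dashed. Nearly all points lie above 0 on both axes, and the gamma-like genes reach furthest, up to 4.89, with the widest bars.

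Apart from genotype, most members were lower in goblet cells than in the remaining epithelium. In WT_GC against WT_EC 2 were higher and 30 lower, where 31% and 30.1% of all genes were, with a median of log2 -0.89. The lowest were Ifit3 (log2 -4.21 ± 0.44, adjusted p = 1.03e-07), Ifit1 (log2 -3.87 ± 0.28, adjusted p = 1.98e-09), Isg15 (log2 -3.04 ± 0.40, adjusted p = 3.31e-06) and Oasl2 (log2 -2.78 ± 0.37, adjusted p = 8.86e-06). Bst2 (log2 0.89 ± 0.18, adjusted p = 0.00025) and Ido1 (log2 3.76 ± 0.99, adjusted p = 0.00401) were the 2 higher in goblet cells. With the block on adjacent numbers, and no share of all genes given for it, the counts were 7 higher and 33 lower. In the fit of those groups alone 5 were higher.

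The same held in the SpdefKO libraries, with 4 members higher and 33 lower in SpdefKO_GC against SpdefKO_EC (28% and 28.4% of all genes) and a median of log2 -0.87. Ido1 (log2 2.07 ± 0.52, adjusted p = 0.00302), Oas2 (log2 0.89 ± 0.19, adjusted p = 0.000467), Bst2 (log2 0.56 ± 0.17, adjusted p = 0.0088) and Ddx58 (log2 0.52 ± 0.18, adjusted p = 0.0199) were higher in SpdefKO_GC. The lowest were Ifit3 (log2 -3.79), Ifit1 (-3.51), Ifit2 (-3.27) and Isg15 (-2.65). In the fit of all 16 libraries without the block, none of the 8 GTPases was called between the fractions in either genotype. Calls of single GTPases in the fit of 1 genotype alone are not given. In WT, all 4 GC libraries lay above all 4 EC libraries for 2 of the 8 GTPases and below for 1. Over all 12915 genes this was so for 3892 and 3784. With the block on adjacent numbers, again with no share of all genes given, the counts in SpdefKO were 5 higher and 40 lower. GTPases were called in both genotypes with the block. In WT, Gbp2 was then lower in GC and Gbp6, Gbp7, Irgm1 and Irgm2 higher. In SpdefKO, Gbp2, Gbp6, Igtp, Irgm1 and Irgm2 were lower in GC and Iigp1 higher, with Irgm2 at log2 -0.90 ± 0.08, adjusted p = 5.29e-10. Of the calls between fractions, 29 of 32 in WT and 32 of 37 in SpdefKO held in all alternatives tried. Purification differed between GC and EC in the same way as the cells, so the column and the cell type cannot be told apart in these 2 comparisons.

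Genes that feed the pathway were read from lists of their own. The interferon genes themselves were hardly read: the 8 in the table had 25 reads over all 16 libraries, 14 of them in SpdefKO_GC, Ifng had 9 reads in all, and no gene had more than 3 in a library, so none could be tested. Of 16 receptor and signalling genes 1 rose and 1 fell in GC: Ifnlr1, the type III receptor chain, rose (log2 0.48 ± 0.11, adjusted p = 0.00503) and Ifngr2 fell (log2 -0.26 ± 0.09, adjusted p = 0.0387). In EC, Il10rb, the chain shared by the type III and interleukin-10 receptors, fell (log2 -0.19, adjusted p = 0.0422). Of 12 tested genes of nucleic acid sensing, Tmem173 (STING) rose in GC (log2 1.25 ± 0.16, adjusted p = 1.4e-05) and Tlr3 in EC (log2 0.56 ± 0.13, adjusted p = 0.0111).

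Of 40 tested interferon targets outside the list, 13 rose and 2 fell in GC, and 11 rose and none fell in EC. Over all genes 10.4% rose and 11% fell in GC, and 6.09% rose and 6.54% fell in EC. The largest rises in GC were those of the GTPase Tgtp2 (log2 4.60 ± 1.38, adjusted p = 0.0282), of Nlrc5 (log2 4.43 ± 0.97, adjusted p = 0.00495) and Ciita (log2 4.02 ± 1.25, adjusted p = 0.0332), the activators of class I and class II antigen presentation genes, of Tgtp1 (log2 3.90) and of Ifi47 (log2 2.43). Smaller rises in GC were those of Sp100 (0.83), Cxcl11 (0.83), Sp110 (0.69), Ifitm3 (0.53), B2m (0.40), Tor3a (0.35), Adar (0.28) and Eif2ak2 (0.19), all log2. Slfn2 (log2 -1.89) and Trim14 (log2 -0.45) fell. Among the largest rises, Tgtp1 (adjusted p = 0.0482) lost its call in 15 of 23 alternatives and Ifi47 in 7 of 23. Tgtp2 and Ciita lost theirs in 7 of 22 each, and Nlrc5 in 1 of 23. Tgtp1 was at 0.533, 0.335, 0.318 and 1.33 CPM in WT_GC and 10.3, 22.9, 1.41 and 0.213 CPM in SpdefKO_GC. Reads in WT_GC were few, with 3, 0, 0 and 5 for Tgtp2, 1, 2, 0 and 6 for Ciita and 4, 9, 3 and 8 for Nlrc5. In SpdefKO_GC they were 74, 128, 7 and 3 for Tgtp2, 46, 95, 8 and 7 for Ciita and 138, 328, 45 and 21 for Nlrc5.

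Markers of other cells were read beside these values. The summed level of 9 T cell and intraepithelial lymphocyte markers was 0.837 to 1.46 CPM in WT_GC and 1.13 to 2.15 CPM in SpdefKO_GC, highest in library 5, with Gzmb at 0 in all of the latter. In EC it was 1.89 to 3.0 CPM in WT and 2.61 to 5.61 CPM in SpdefKO, highest in library 6. Gzmb had 1, 2, 1 and 0 reads in the WT_EC libraries and 10, 9, 3 and 1 in the SpdefKO_EC libraries. Of the 10 markers listed, only 1 had enough reads for a test, and it was called in neither fraction. The sum of 11 myeloid markers was 7.05 to 9.25 CPM in WT_GC and 9.47 to 14.2 CPM in SpdefKO_GC, again highest in library 5, with S100a8 and S100a9 at 0 in every GC library. Of 6 tested, Itgam, Itgax and Csf1r rose in GC (log2 1.27, 1.58 and 1.70) and none in EC, where the sums were 14.4 to 18.3 CPM in WT and 9.38 to 19.8 CPM in SpdefKO. Reads were few: Itgax had 3, 2, 1 and 1 in WT_GC and 8, 5, 3 and 6 in SpdefKO_GC. Csf1r had 0, 3, 3 and 2 in WT_GC and 4, 9, 8 and 6 in SpdefKO_GC. The other 3 were not called in GC, among them Ptprc, at 1.53, 1.28, 1.91 and 1.69 CPM in WT_GC and 1.84, 1.95, 1.27 and 0.924 CPM in SpdefKO_GC. The sum of 8 colonocyte markers was 1256 to 1612 CPM in WT_GC and 1672 to 2084 CPM in SpdefKO_GC, against 10467 to 12384 CPM in EC, and 6 of the 8 rose in GC and 2 in EC. Of the 9 goblet markers 3 rose and 1 fell in GC, and 4 fell in EC. All 7 enteroendocrine markers rose in GC (81.5 to 113 CPM in WT and 196 to 290.3 CPM in SpdefKO), and 5 of them fell in EC (520 to 689.9 CPM in WT and 232 to 377 CPM in SpdefKO). The sum of 5 tuft cell markers was 33.6 to 65.9 CPM in WT_EC and 8.44 to 14.3 CPM in SpdefKO_EC, where 3 of 4 tested fell, and 31.8 to 42.3 CPM in WT_GC and 17.4 to 39.3 CPM in SpdefKO_GC, where none was called. Of the mast cell markers, Mcpt1, a mucosal mast cell protease, rose in EC (log2 2.50 ± 0.45, adjusted p = 0.00189), from 0.824, 1.18, 0.580 and 0.514 CPM to 3.83, 7.44, 4.87 and 1.04 CPM, highest in library 6 and lowest in library 20 of the SpdefKO libraries. Kit was called in neither fraction, and Cpa3 was at 0 in all WT_EC and SpdefKO_GC libraries. At 270 to 293 CPM in WT_GC against 8.17 to 12.9 CPM in WT_EC, Kit is no measure of mast cells here. No stromal or endothelial marker was called by genotype, and the B and plasma cell markers, at most 0.625 CPM in sum, were too low to test. The part of these cells in the interferon values was not tested.

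How far single libraries decide these calls differed between the genes. Of the 25 calls in GC, 14 held in all alternatives tried: Irf7, Irf9, Oas2, Oas3, Oasl1, Oasl2, Ifit1, Mx2, Rtp4, Lgals3bp, Isg15, Usp18, Parp12 and Ido1. Of the 26 in EC, 11 did: Stat2, Oas2, Oas3, Oasl2, Ifit1, Ifit2, Ifit3, Mx2, Ifi44, Rtp4 and Isg15. The GTPases were not among them. In GC, Gbp2, Gbp3 and Iigp1 lost their calls when library 5 was left out, and likewise for each of 2 or more WT_GC libraries (adjusted p up to 0.0975, 0.0866 and 0.0631), with Gbp2 also without library 3. In EC, Gbp2, Gbp3, Gbp7, Iigp1, Igtp, Irgm1 and Irgm2 lost theirs when library 4 or 6 was left out, and likewise for each of 2 or more WT_EC libraries, at adjusted p up to 0.112. Without 1 library at a time, 14 to 28 members were called higher in GC, with 14 without SpdefKO_GC 5 or WT_GC 13 and 15 without WT_GC 9 or 11. In EC it was 12 to 31, with 12 without SpdefKO_EC 4, 15 without 6, and 14, 16, 14 and 17 without WT_EC 10, 12, 14 and 17. The other calls in GC that lost significance without single libraries were those of Ddx58, Dhx58, Ifi44, Trim25, Parp14 and Psmb8, at adjusted p up to 0.147, each of them when library 5 or any of at least 2 WT_GC libraries was left out. In EC they were those of Dhx58, Oasl1, Cmpk2, Samhd1, Usp18, Herc6 and Parp12, each of them when library 4 was left out, at adjusted p up to 0.191. Under limma-voom, with all libraries kept, the EC call of Ido1 and the GC calls of Parp14 and Psmb8 were lost. So were all calls of the GTPases in both fractions. For Iigp1 the limma-voom adjusted p was 0.291 in GC and 0.358 in EC, and for Gbp2 0.158 and 0.132.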

How the data were processed

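Per the labels' protocols, paired-end libraries were made with a stranded total RNA kit that removes ribosomal RNA. The authors deposited raw counts for each gene symbol in each library. The build mm10 and the tools HTSeq 0.6.1p1, STAR 2.4.0f, DESeq2 1.14 and FastQC 0.11.2 stand in the submitters' processing notes, without roles. Annotation and strand setting are not given in the sources used. The 3 entries that name no gene held 47.1 to 54.7% of counts and were left out. The deposited normalized signal, the counts over a size factor, was not tested.

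Counts of all 16 libraries were fitted in edgeR 4.0.16 (R 4.3.3), with 1 coefficient per group, TMM scaling, filterByExpr and robust quasi-likelihood tests. P-values were adjusted by Benjamini-Hochberg over all 12915 genes tested, with a threshold of 0.05. SE is the log2 fold change over the root of F, which is approximate. The genotype difference between fractions was an interaction term. Alternatives were other scaling factors, filters and fits, limma-voom (limma 3.58.1), DESeq2 1.42.0, and each library left out in turn. On simulated counts of 12915 genes, of which 200 changed 2-fold, 93.9% of the changed genes were recovered and 1.59% of calls were false. The simulation gave every gene the same spread (dispersion 0.0137) and independent libraries. Its rates thus do not carry over to genes as uneven as the gamma-like ones, or to libraries that correlate.

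The members and lists were chosen with earlier results of these data known. Fold changes are given for every type I/III-like and gamma-like gene and every other member called in GC, for the 4 most changed members in each direction in the other comparisons, and for pathway genes called in GC. Values per library are given for the most changed member of each role. Further values were added where a sentence needed them. Besides that of Il10rb, 1 called result on the receptor and signalling list in EC is not reported here.

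Whether adjacent library numbers pair GC with EC libraries was checked by the correlation over genes of deviations from group means. It was 0.128 to 0.639 in the 8 adjacent pairs, each the highest of that GC library with any EC library of its group. The pairing is a hint from these data, not from the labels, and fits with a block on it are given beside the results they change. Positions are those of GENCODE on GRCm38, the assembly also called mm10.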

Additional observations from a re-analysis of the deposited data

Results flagged for a closer look

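Among 192 sets of 4 libraries (48 genes in 4 groups), 12 had 1 library far from the other 3, by a gap over 0.829 of the whole range. By chance about 1 in 20, or 5%, would, so 12 of 192 is near the chance rate. The sets share libraries and are not independent, and the share over all genes is not given. SpdefKO_GC library 5 stood above the others for Oas2 (10.7 CPM), Ifit1 (5.49 CPM), Cmpk2 (17.3 CPM) and Samhd1 (68.4 CPM). WT_GC library 18 stood apart for Dhx58 (8.00 CPM), Zbp1 (11.2 CPM) and, below the others, Oas1a (21.3 CPM). WT_GC library 13 was low for Irf1 (113.8 CPM) and WT_GC library 11 for Parp12 (39.4 CPM). In WT_EC, library 12 was high for Oasl1 (53.8 CPM), and library 14 was low for Ifi35 (20.5 CPM) and Trim25 (177 CPM).

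The genotype difference differed between the fractions by the interaction test for Lgals3bp (log2 0.80 higher in GC), Irf7 (0.62 higher in GC) and Rsad2 (-0.81).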

How the results depend on the processing

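None of the 72 single-gene results followed through the alternatives changed sign, and other differences printed above are not covered by this count. Of 1666 alternative values of 72 single-gene results, 1429 kept their side of the threshold, 227 lost the call and 10 gained one. The 23 members higher in SpdefKO_GC against WT_GC ran over 14 to 28 without 1 library at a time and over 17 to 27 in the other alternatives; the 2 lower became 1 in the fit of the groups compared alone and 0 to 2 without 1 library. The 26 higher in SpdefKO_EC against WT_EC became 16 with no filter on low counts and 12 to 31 without 1 library, and the count lower was 0 throughout. In WT_GC against WT_EC the 2 higher became 5 in the fit of those groups alone, 7 with the block on adjacent numbers and 2 to 3 without 1 library, and the 30 lower became 33 in each of those 2 fits and 28 to 30 without 1 library. In SpdefKO_GC against SpdefKO_EC the 4 higher and 33 lower became 3 and 29 in the fit of those groups alone, 5 and 40 with the block, and 3 to 4 and 31 to 37 without 1 library. The interaction's 2 higher and 1 lower became 1 and 0 with no filter, 1 and 0 under limma-voom, 5 and 11 with the replicate block on adjacent numbers, and 1 to 3 and 0 to 2 without 1 library. Leaving out a library leaves fewer samples. Otherwise the cause was not tested, and shares of all genes called with the block are not given. Upper-quartile scaling moved the median of all genes to log2 0.14 in WT_GC against WT_EC and 0.15 in SpdefKO_GC against SpdefKO_EC. A looser spelling of the response element, with 1 to 3 free bases in its middle, was in the windows of 8.59% of all genes; as for the main spelling, no count over the members is given, since windows were matched for 36 of 48. Genes with few reads, Ifit3, Ifi44, Usp18 and Isg15 in GC, Tgtp2, Ciita and Nlrc5 in WT_GC and Ido1 in WT_EC, are limited by depth.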
